A study of Mus musculus with 24 samples.

Results

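The cell cycle and mitosis genes described here are 44 genes listed by name, with earlier results of these data known, from a table of 15323 genes measured in mouse liver and heart. All 44 were found in the table by matching its Ensembl identifiers to symbols in GENCODE vM21. By role they comprise 6 genes of G1 and entry into S phase, 11 of DNA replication and deoxynucleotide supply, 13 of the control of mitosis and 14 of the spindle, chromosomes and cytokinesis.

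Polyadenylated RNA was sequenced from the median liver lobe and the left ventricle of male mice aged 10 weeks. The 4 genotypes, written with the nuclear genome first and the mitochondrial DNA (mtDNA) second, were BL/6J:C57 and NZB:NZB, in which both genomes came from one strain (C57BL/6 or NZB), and the conplastic lines BL/6J:NZB and NZB:C57, in which 10 generations of backcrossing had joined one strain's nucleus to the other's mtDNA. Each library was a pool of RNA from 4 animals, and the 12 males of a genotype gave 3 pools per tissue, so the 24 libraries form 8 groups of 3 and every p-value measures the spread between pools. The titles of the libraries with a BL/6J nucleus carry the word mix and those with an NZB nucleus the word rep, so a difference in handling between mix and rep libraries, if there was one, and the nuclear genome cannot be told apart.

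A dividing cell leaves G1 when cyclins D and E with their kinases release the E2F transcription factors, copies its DNA behind the MCM helicase in S phase, and then enters mitosis under cyclins A and B with CDK1, the Polo and Aurora kinases and the spindle motors. The ubiquitin ligase APC/C with its activator CDC20 ends mitosis by having the cyclins destroyed. In adult mice most hepatocytes and cardiomyocytes are out of the cycle, many of them with more than one nucleus or genome copy, and transcripts of mitotic genes are low in resting tissue, where they can come from any cell type that still divides. In bulk RNA a change in the number of cycling cells and a change in RNA per cell cannot be told apart.

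Liver libraries held 7294525 to 34974268 reads and heart libraries 3714278 to 12949956. A value here is a gene's reads after the authors' normalisation between libraries, not divided by gene length, and 1 read was worth 0.0398 to 0.194 in liver and 0.0716 to 0.221 in heart. A gene with 0 reads could still have had up to 3, which is a value of at most 0.582 in liver and 0.662 in heart (counting error only). The 3 NZB:C57 hearts stood apart from the other hearts: their values summed to 1048698 to 1068799 against 643486 to 726047, and 20 genes took 33.4 to 34.1% of their reads against 11.5 to 14.5%. Hepatocyte markers summed to at least 107594 in every liver and at most 179 in any heart, and cardiomyocyte markers to at least 20797 in every heart and at most 114 in any liver, so each library matched its labelled tissue.

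Promoters of 6 members are shown because the results turn on these genes: Mki67, Cdc20, Ckap2l, Top2a and Mcm6 differed between the nuclear genomes in both tissues, and Cdkn1a did not pass the test in either. Each line holds the 150 bases before the gene's start, 5′ to 3′ on the gene's own strand, from RefSeq on GRCm38.p6. Capitals mark 3 motifs searched on both strands: TTTGAA, the core of the cell cycle homology region (CHR) known from promoters of mitotic genes; CCAAT, the box bound by NF-Y; and TTTNNCGC, a core E2F site known from promoters of replication genes. The windows are chr7:135716380-135716529 on the minus strand (Mki67), chr4:118437344-118437493 on the minus strand (Cdc20), chr2:129297213-129297362 on the minus strand (Ckap2l), chr11:99024190-99024339 on the minus strand (Top2a), chr1:128359706-128359855 on the minus strand (Mcm6) and chr17:29090829-29090978 on the plus strand (Cdkn1a).
Mki67: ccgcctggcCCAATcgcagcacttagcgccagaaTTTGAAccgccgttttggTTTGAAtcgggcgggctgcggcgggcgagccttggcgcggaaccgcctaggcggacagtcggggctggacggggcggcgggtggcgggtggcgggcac
Cdc20: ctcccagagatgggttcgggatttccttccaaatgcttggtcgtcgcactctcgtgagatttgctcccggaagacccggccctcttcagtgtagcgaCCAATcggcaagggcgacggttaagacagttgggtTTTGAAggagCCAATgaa
Ckap2l: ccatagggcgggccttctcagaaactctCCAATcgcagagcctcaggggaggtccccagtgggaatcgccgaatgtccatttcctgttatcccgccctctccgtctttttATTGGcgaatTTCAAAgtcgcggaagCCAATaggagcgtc
Top2a: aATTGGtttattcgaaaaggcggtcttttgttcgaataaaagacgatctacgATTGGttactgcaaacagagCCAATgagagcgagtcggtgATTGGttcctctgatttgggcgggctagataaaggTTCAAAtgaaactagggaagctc
Mcm6: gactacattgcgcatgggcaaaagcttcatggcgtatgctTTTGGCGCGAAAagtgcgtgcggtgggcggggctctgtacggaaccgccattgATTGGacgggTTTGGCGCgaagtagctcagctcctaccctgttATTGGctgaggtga
Cdkn1a: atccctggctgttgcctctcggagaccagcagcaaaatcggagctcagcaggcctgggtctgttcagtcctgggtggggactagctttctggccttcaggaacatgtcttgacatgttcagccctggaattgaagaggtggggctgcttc
In the printed windows TTTGAA occurred 2 times in Mki67, with first bases 116 and 98 bases before the start, and 1 time each in Cdc20 (18 bases), Ckap2l (30 bases) and Top2a (23 bases). Mcm6 held no TTTGAA there but 3 matches to the E2F core, with first bases 110, 106 and 47 bases before it, so that the first and second overlap. Cdkn1a held none of the 3.

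Over the full window of 300 bases (250 before the start and 50 after it), RefSeq promoters were matched for 35 of the 44 members and compared with all 27025 promoters of the table. TTTGAA was present in 18 of the 35 (51.4%) against 18.1% of all promoters, CCAAT in 26 (74.3%) against 37.9%, and TTTNNCGC in 7 (20%) against 5.27%. Both TTTGAA and CCAAT were present in 17 members (48.6%) against 7.12% of all promoters. TTTGAA was found in 7 of 9 mitotic control promoters and 9 of 12 of the spindle group, but in 2 of 10 replication promoters and 0 of 4 promoters of G1 and S entry. TTTNNCGC was found in 5 of 10 replication promoters. These shares describe letters in a window, were not tested, and do not show that a factor bound there.

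In liver most of the 44 genes were higher with the NZB nuclear genome than with the BL/6J one. With NZB mtDNA, 35 members were higher in NZB:NZB than in BL/6J:NZB livers and 0 were lower (limma, adjusted p under 0.05 over 13159 genes), where 12.9% of all tested genes were higher and 11.9% lower. With C57 mtDNA, 31 were higher in NZB:C57 than in BL/6J:C57 and 0 lower, against 13.1% and 14.8% of all genes. The groups of the 2 comparisons share no library, but both take their spread from 1 fit of all 12 livers, so their p-values are not independent. The median log2 difference over the 42 tested members was 1.65 on NZB mtDNA and 0.87 on C57 mtDNA, beside medians of -0.01 and -0.03 over all tested genes. Log2 differences are of the value + 1 and understate the change of genes with low values. Of the 42 members tested in liver, 27 would have passed the filter on low values in the BL/6J libraries alone and 15 passed only through the NZB libraries, where they are high, so their counts are no support. Among the 27, 21 were higher on NZB mtDNA and 18 on C57 mtDNA, with 0 lower on either and medians of 1.31 and 0.69. Of all 12456 genes that pass in the BL/6J libraries alone, 10.7% and 11.6% were higher.

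**Figure D1:**
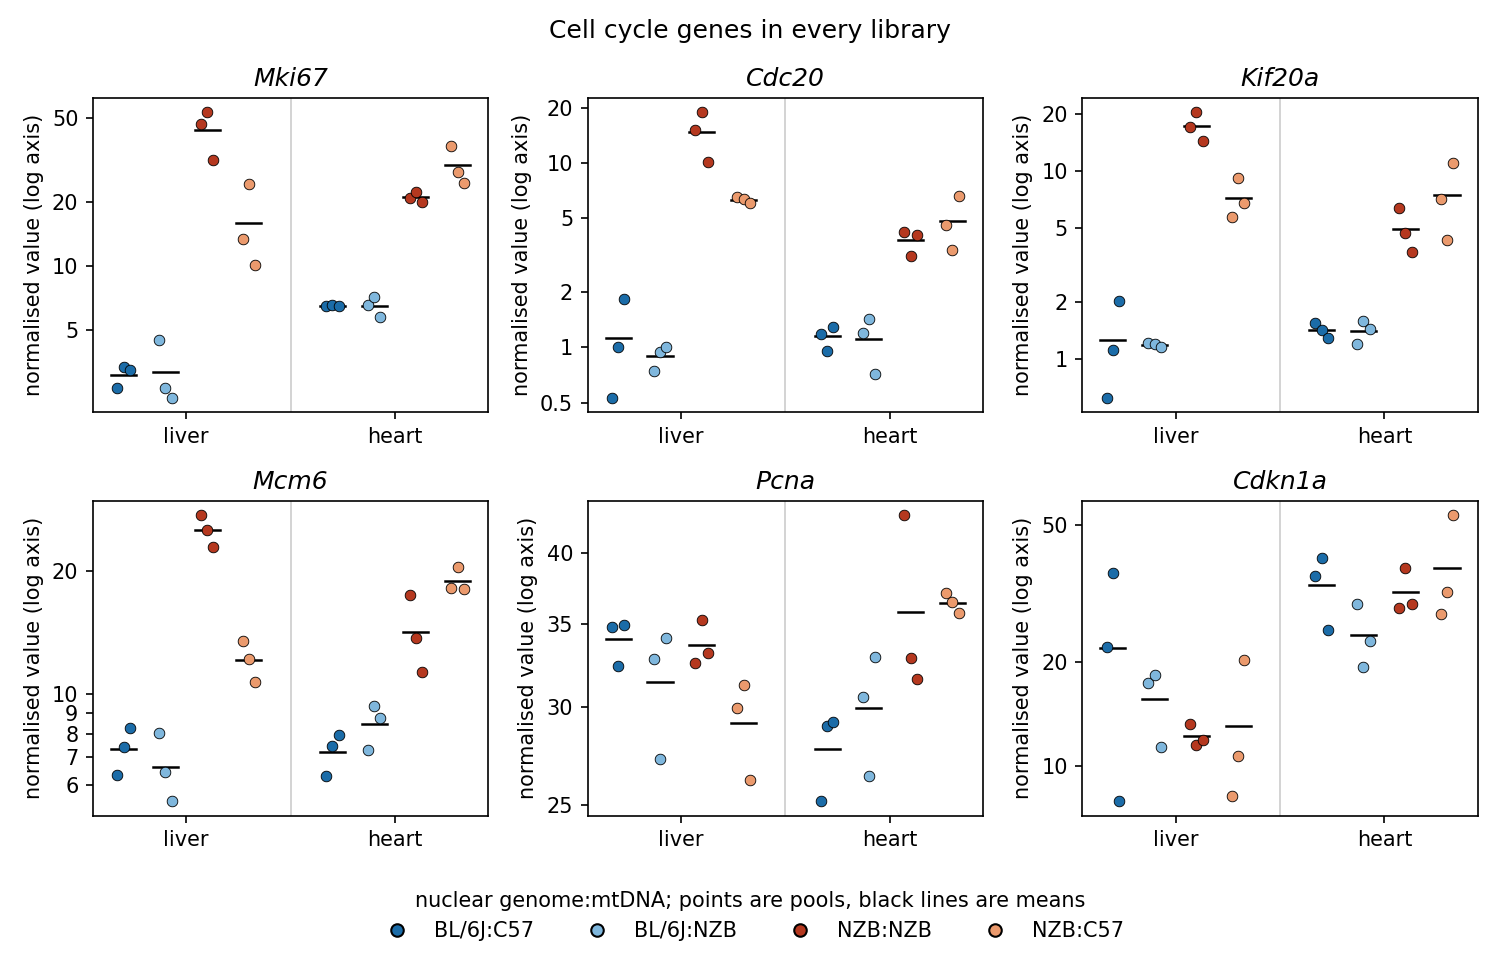
Normalised values of 6 genes in every library, on log axes, by tissue (x axis) and genotype (colour); each point is a pool and each black line the mean of 3 pools. In both tissues the NZB-nuclear pools of Mki67, Cdc20, Kif20a and Mcm6 lie above all 6 BL/6J-nuclear pools, while Pcna and Cdkn1a values overlap in liver.

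Of the spindle, chromosome and cytokinesis genes 13 of 14 were higher in liver on either mtDNA, with medians of 2.31 and 1.14. All 15 liver members that passed the filter only through the NZB libraries belong to this group or to mitotic control. The counts and medians of both roles were not split by the filter, so for those members they are no support. Mki67 (ENSMUSG00000031004, chr7:135689784-135716361 on GRCm38), which codes for the Ki-67 protein that coats mitotic chromosomes and is used as a marker of cycling cells, had liver values of 2.64, 3.35 and 3.22 (BL/6J:C57), 4.48, 2.66 and 2.38 (BL/6J:NZB), 46.5, 53.1 and 31.7 (NZB:NZB) and 13.4, 24.3 and 10.0 (NZB:C57). These rest on 30 to 81 reads per BL/6J-nuclear liver and 61 to 540 per NZB-nuclear liver. All 6 NZB-nuclear livers lay above all 6 BL/6J-nuclear ones, and the NZB:NZB livers lay above the NZB:C57 livers. The mean was 13.8-fold higher on NZB mtDNA, a log2 difference of 3.43 (SE 0.28, adjusted p = 6.73e-07), and 5.18-fold higher on C57 mtDNA, 1.97 (SE 0.28, adjusted p = 0.000134).

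Kif20a, the kinesin that carries the chromosomal passenger complex to the spindle midzone, had liver values of 0.617, 1.12 and 2.03 (BL/6J:C57), 1.21, 1.203 and 1.15 (BL/6J:NZB), 17.1, 20.5 and 14.4 (NZB:NZB) and 5.72, 9.12 and 6.75 (NZB:C57). It was 14.6-fold higher on NZB mtDNA, 3.05 (SE 0.22, adjusted p = 2.31e-07), and 5.74-fold on C57 mtDNA, 1.89 (SE 0.22, adjusted p = 2.64e-05), again with no overlap between nuclear genomes. Ckap2l, which codes for a mitotic spindle protein, was measured in liver at 0.440, 0.558 and 0.637 (BL/6J:C57), 0.187, 0.344 and 0.360 (BL/6J:NZB), 6.85, 7.17 and 4.76 (NZB:NZB) and 2.43, 2.33 and 2.14 (NZB:C57). The BL/6J values rest on 2 to 16 reads, and no BL/6J pool reached any NZB pool. Ckap2l passed the filter in liver only through the NZB libraries, so its liver calls are no support. Its log2 difference was 2.47 (SE 0.17, adjusted p = 1.41e-07) on NZB mtDNA and 1.10 (SE 0.17, adjusted p = 0.000338) on C57 mtDNA.

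Cdca3, a trigger of entry into mitosis through degradation of the kinase WEE1, had liver values of 2.38, 2.29 and 2.95 (BL/6J:C57), 1.87, 1.46 and 2.16 (BL/6J:NZB), 12.5, 17.1 and 10.1 (NZB:NZB) and 8.07, 6.99 and 8.73 (NZB:C57). Its values did not overlap between nuclear genomes. The log2 difference was 2.31 (SE 0.18, adjusted p = 5.15e-07) on NZB mtDNA and 1.34 (SE 0.18, adjusted p = 9.98e-05) on C57 mtDNA. Kif23, a motor of cytokinesis named here after its values were seen, was the 1 spindle gene that did not pass the liver test on either mtDNA, at 0.73 and 0.41. The other 9 of the group had log2 differences between 1.35 and 2.63 on NZB mtDNA and between 0.81 and 1.42 on C57 mtDNA.

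Among the mitotic control genes 12 of 13 were higher on NZB mtDNA and 11 of 13 on C57 mtDNA, with medians of 2.04 and 1.18 over the 12 tested. As in the spindle group, these include members that passed the filter only through the NZB libraries, for which the counts are no support. Cdc20 (ENSMUSG00000006398, chr4:118432901-118437352), the activator of the APC/C, had liver values of 0.529, 1.004 and 1.83 (BL/6J:C57), 0.746, 0.945 and 1.01 (BL/6J:NZB), 15.2, 18.9 and 10.2 (NZB:NZB) and 6.51, 6.404 and 6.09 (NZB:C57). The 3 NZB:C57 pools fell within a narrow range between the BL/6J pools and the NZB:NZB pools. Cdc20 was 16.4-fold higher on NZB mtDNA, 3.01 (SE 0.23, adjusted p = 4.02e-07), and 5.65-fold on C57 mtDNA, 1.84 (SE 0.23, adjusted p = 5.02e-05).

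Ccnb1, cyclin B1, the partner of CDK1 in mitosis, was measured in liver at 0.0881, 0.725 and 1.43 (BL/6J:C57), 0.746, 0.430 and 0.432 (BL/6J:NZB), 12.3, 15.1 and 8.07 (NZB:NZB) and 5.10, 5.24 and 5.43 (NZB:C57). Its lowest value, in BL/6J:C57 pool 1, was a single read. Ccnb1 passed the filter in liver only through the NZB libraries, so its liver calls are no support. The log2 difference was 3.03 (SE 0.27, adjusted p = 1.58e-06) on NZB mtDNA and 1.91 (SE 0.27, adjusted p = 0.000121) on C57 mtDNA. Ccna2, cyclin A2 of S phase and early mitosis, was measured at 1.498, 1.28 and 1.27 (BL/6J:C57), 1.49, 0.859 and 0.936 (BL/6J:NZB), 10.8, 13.2 and 8.29 (NZB:NZB) and 5.88, 8.15 and 4.45 (NZB:C57). Its values did not overlap between nuclear genomes, with log2 differences of 2.48 (SE 0.21, adjusted p = 1.08e-06) and 1.57 (SE 0.21, adjusted p = 8.33e-05). Cdc25c, which codes for a phosphatase that activates CDK1, did not pass the filter on low values in either tissue; it had 0 reads in the 3 BL/6J:NZB livers, 8 to 10 reads in each NZB:NZB liver, and 42, 0 and 0 reads in the NZB:C57 livers.

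The replication and deoxynucleotide genes split into members that followed the mitotic genes and members that did not. On NZB mtDNA 8 of 11 were higher in liver, and on C57 mtDNA 6 of 11. Mcm6 (ENSMUSG00000026355, chr1:128331590-128359664), a subunit of the replicative helicase, had liver values of 6.34, 7.42 and 8.28 (BL/6J:C57), 8.02, 6.44 and 5.47 (BL/6J:NZB), 27.4, 25.3 and 22.9 (NZB:NZB) and 13.5, 12.2 and 10.7 (NZB:C57). Its BL/6J, NZB:C57 and NZB:NZB pools formed 3 ranges that did not overlap. The log2 difference was 1.79 (SE 0.15, adjusted p = 8.4e-07) on NZB mtDNA and 0.66 (SE 0.15, adjusted p = 0.00491) on C57 mtDNA. Top2a, topoisomerase II alpha, which untangles copied chromosomes, was measured in liver at 1.85, 2.29 and 2.23 (BL/6J:C57), 3.26, 2.66 and 1.58 (BL/6J:NZB), 17.1, 22.2 and 13.1 (NZB:NZB) and 8.07, 10.3 and 5.76 (NZB:C57). It was 6.97-fold higher on NZB mtDNA, 2.40 (SE 0.23, adjusted p = 4.39e-06), and 3.79-fold on C57 mtDNA, 1.51 (SE 0.23, adjusted p = 0.000303).

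Tk1, the S phase thymidine kinase, had liver values of 24.6, 22.4 and 16.2 (BL/6J:C57), 20.99, 22.6 and 24.8 (BL/6J:NZB), 26.3, 32.7 and 28.8 (NZB:NZB) and 26.7, 30.7 and 22.2 (NZB:C57) and did not pass the test on either mtDNA (0.34, adjusted p = 0.128, and 0.33, adjusted p = 0.133). Its ranges overlapped on C57 mtDNA and were separate on NZB mtDNA. Tyms, thymidylate synthase, was measured at 12.7, 14.3 and 15.4 (BL/6J:C57), 15.1, 16.9 and 16.6 (BL/6J:NZB), 21.02, 22.9 and 17.0 (NZB:NZB) and 28.8, 26.01 and 16.1 (NZB:C57) and was higher on C57 mtDNA, 0.67 (SE 0.18, adjusted p = 0.0143), while on NZB mtDNA the difference was 0.30 (adjusted p = 0.257). Mcm7, another helicase subunit, was measured at 17.6, 17.9 and 18.4 (BL/6J:C57), 15.4, 17.6 and 15.9 (BL/6J:NZB), 21.8, 20.9 and 19.7 (NZB:NZB) and 22.1, 22.9 and 20.6 (NZB:C57) and was higher on NZB mtDNA by 0.34 (SE 0.10, adjusted p = 0.0211), a ratio of means of 1.28. Pcna, the sliding clamp of DNA polymerase, named here after its values were seen, ranged from 26.2 to 35.3 over all 12 livers, with log2 differences of 0.10 and -0.22 that did not pass the test.

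The 6 genes of G1 and S entry showed the fewest differences in liver, with 2 higher on NZB mtDNA and 1 on C57 mtDNA. The mitotic control and spindle counts include members that passed the filter only through the NZB libraries, so the contrast between roles is no support to that extent. Ccnd1, cyclin D1, which links growth signals to G1 exit, had liver values of 20.3, 32.8 and 32.5 (BL/6J:C57), 22.9, 22.4 and 20.9 (BL/6J:NZB), 68.3, 48.0 and 54.2 (NZB:NZB) and 36.8, 25.6 and 49.7 (NZB:C57). It was higher in NZB:NZB than in BL/6J:NZB, 1.31 (SE 0.22, adjusted p = 0.000652), with no overlap, and the NZB:C57 pools overlapped the BL/6J:C57 pools, 0.36 (SE 0.22, adjusted p = 0.245). Cdkn1a, which codes for p21, is the only inhibitor of cyclin-dependent kinases among the members. It was measured in liver at 22.0, 36.1 and 7.88 (BL/6J:C57), 17.3, 18.3 and 11.3 (BL/6J:NZB), 13.2, 11.5 and 11.8 (NZB:NZB) and 8.15, 10.7 and 20.3 (NZB:C57). The BL/6J:C57 pools covered the whole range of the other 9, and no test passed over all 12 livers (-0.31 (SE 0.41, adjusted p = 0.633) on NZB mtDNA and -0.58 (SE 0.41, adjusted p = 0.318) on C57 mtDNA). Without BL/6J:C57 pool 3, the lowest of that group, Cdkn1a was lower with the NZB nucleus on C57 mtDNA, -1.15 (limma, adjusted p = 0.0123).

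**Figure D2:**
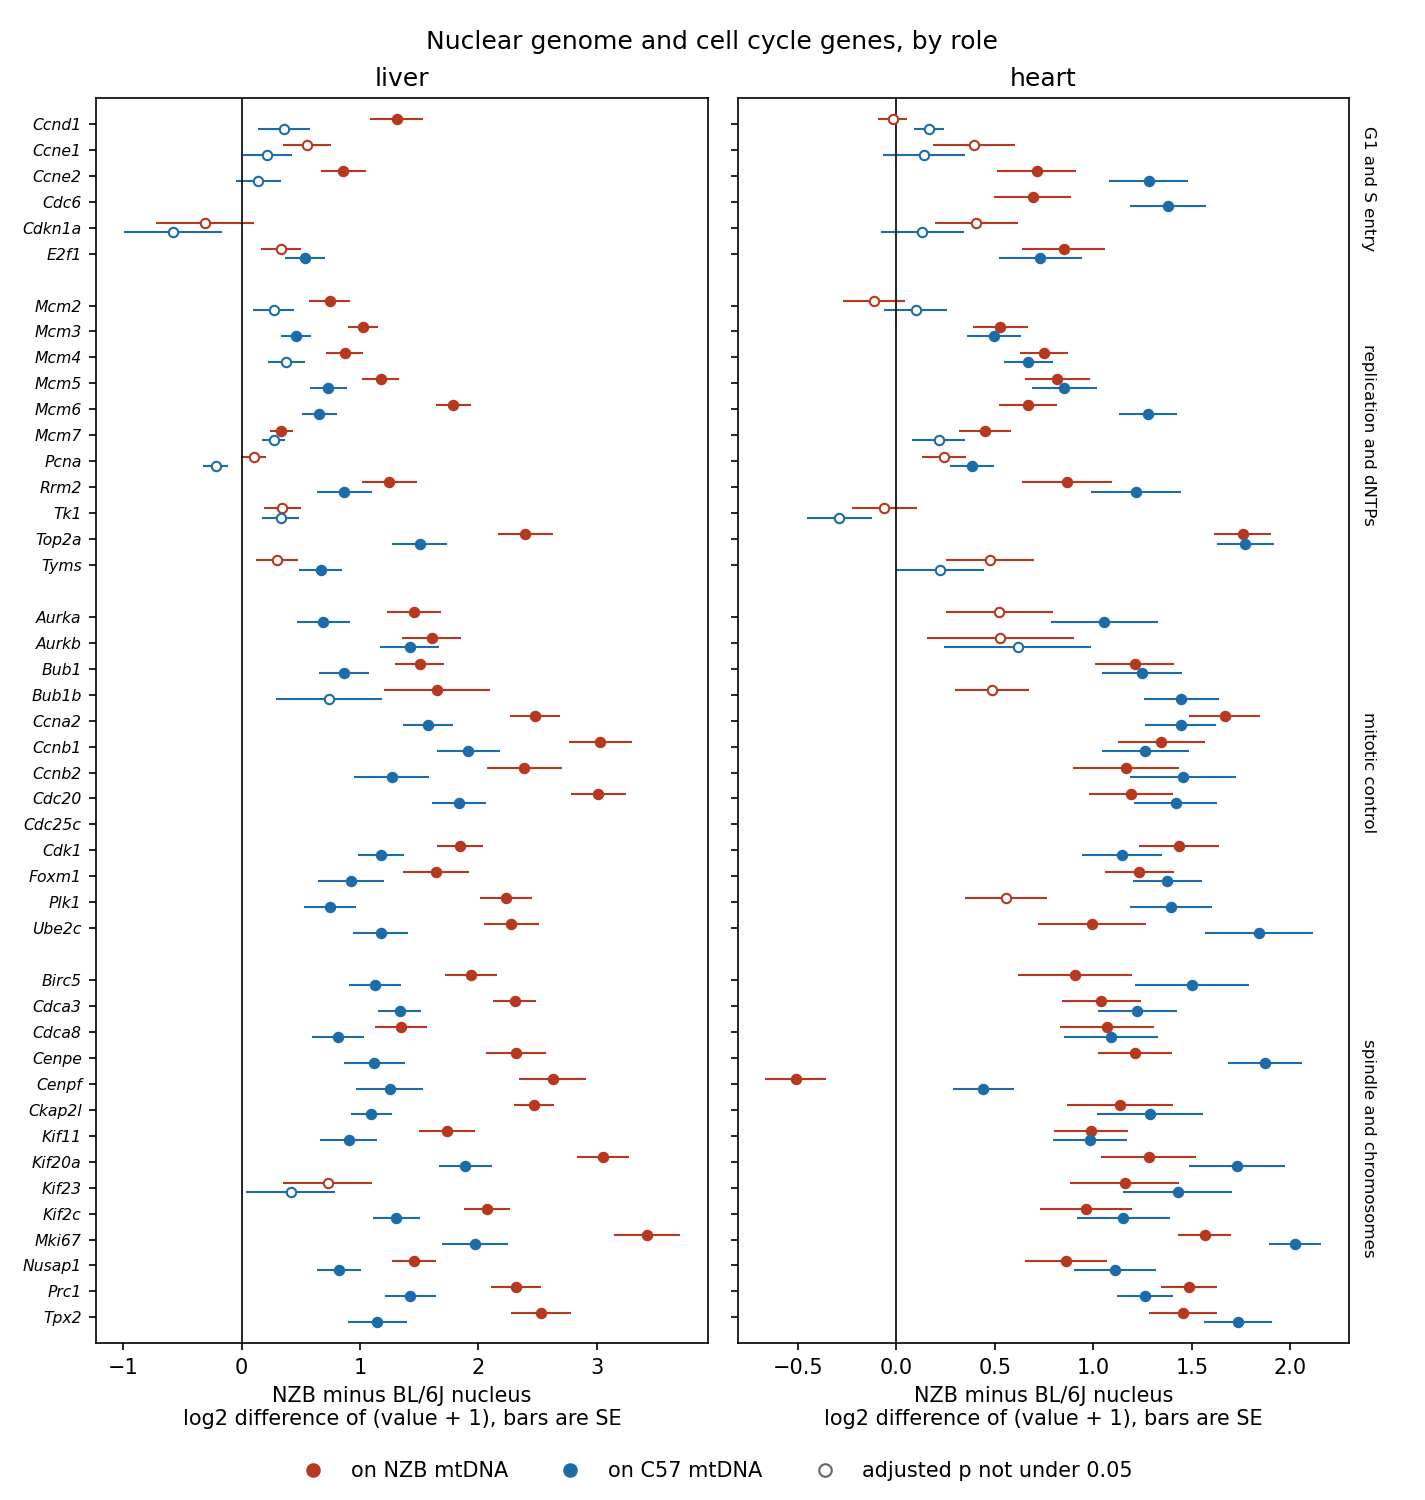
Log2 difference of (value + 1) between NZB and BL/6J nuclear genomes for each tested member, grouped by role (y axis), in liver and heart; points are limma estimates, bars are standard errors, and open points did not reach an adjusted p under 0.05. Mitotic control and spindle genes lie to the right of 0 in both tissues, from 0.41 to 3.43 in liver, whereas Cenpf on NZB mtDNA in heart lies at -0.51.

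In heart too most members were higher with the NZB nucleus. On NZB mtDNA 31 members were higher in NZB:NZB than in BL/6J:NZB hearts and 1 was lower, where 15.5% of all 13803 tested genes were higher and 13.6% lower. On C57 mtDNA 35 were higher in NZB:C57 than in BL/6J:C57 and 0 lower, against 22.1% and 13.1% of all genes. Medians over the 43 tested members were 0.86 and 1.22. In heart 29 of these would have passed the filter in the BL/6J libraries alone. Among those 29, 20 were higher and 1 lower on NZB mtDNA and 23 were higher and 0 lower on C57 mtDNA, where 14.5% and 19.7% of the 12938 genes that pass in the same way were higher.

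Top2a had heart values of 4.01, 2.70 and 3.51 (BL/6J:C57), 3.73, 3.65 and 2.79 (BL/6J:NZB), 14.1, 14.6 and 12.7 (NZB:NZB) and 14.4, 13.2 and 14.1 (NZB:C57). The 6 NZB-nuclear hearts lay above the 6 BL/6J-nuclear hearts and were alike on either mtDNA in mean, with log2 differences of 1.76 (SE 0.14, adjusted p = 7.6e-08) and 1.77 (SE 0.14, adjusted p = 2.62e-08). Mki67 was measured in heart at 6.47, 6.52 and 6.47 (BL/6J:C57), 6.56, 7.15 and 5.73 (BL/6J:NZB), 20.8, 22.3 and 20.1 (NZB:NZB) and 36.9, 27.8 and 24.7 (NZB:C57). The 3 BL/6J:C57 hearts had nearly the same value, from 35 to 71 reads, and the NZB:C57 hearts were the highest. Mki67 was 3.25-fold higher on NZB mtDNA, 1.56 (SE 0.13, adjusted p = 1.22e-07), and 4.60-fold on C57 mtDNA, 2.02 (SE 0.13, adjusted p = 1.56e-09).

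Prc1, which bundles the antiparallel microtubules of the spindle midzone, had heart values of 2.10, 2.38 and 2.77 (BL/6J:C57), 2.09, 2.38 and 2.29 (BL/6J:NZB), 8.58, 8.005 and 7.77 (NZB:NZB) and 7.39, 7.51 and 6.62 (NZB:C57). Tpx2, an activator of Aurora A on spindle microtubules, was measured at 1.09, 1.59 and 1.29 (BL/6J:C57), 1.64, 1.27 and 1.15 (BL/6J:NZB), 5.48, 5.22 and 5.58 (NZB:NZB) and 6.20, 8.42 and 5.74 (NZB:C57). Neither gene overlapped between nuclear genomes; the log2 differences were 1.49 (SE 0.14, adjusted p = 5.17e-07) and 1.26 (SE 0.14, adjusted p = 1.5e-06) for Prc1. For Tpx2 they were 1.46 (SE 0.17, adjusted p = 6.41e-06) and 1.73 (SE 0.17, adjusted p = 3.1e-07).

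Cdk1, the mitotic kinase itself, had heart values of 0.820, 1.43 and 0.924 (BL/6J:C57), 0.745, 0.794 and 1.003 (BL/6J:NZB), 4.84, 3.65 and 3.55 (NZB:NZB) and 4.33, 2.48 and 3.97 (NZB:C57) and liver values of 1.32, 1.34 and 1.95 (BL/6J:C57), 1.49, 1.72 and 1.66 (BL/6J:NZB), 8.50, 10.0 and 6.97 (NZB:NZB) and 4.08, 6.60 and 3.79 (NZB:C57). In both tissues the lowest NZB-nuclear pool was above the highest BL/6J-nuclear pool. In heart the log2 differences were 1.43 (SE 0.20, adjusted p = 4.5e-05) on NZB mtDNA and 1.15 (SE 0.20, adjusted p = 0.000215) on C57 mtDNA. Cdk1 and Cenpe passed the filter in heart only through the NZB libraries, so their heart calls are no support. Cenpe, a kinetochore motor that brings chromosomes to the metaphase plate, was measured in heart at 0.911, 0.795 and 0.554 (BL/6J:C57), 1.34, 0.794 and 0.788 (BL/6J:NZB), 2.86, 3.48 and 4.39 (NZB:NZB) and 4.84, 5.61 and 5.74 (NZB:C57), with 1.21 (SE 0.19, adjusted p = 0.000116) and 1.87 (SE 0.19, adjusted p = 3.48e-07). Ccna2 was measured in heart at 2.19, 1.11 and 1.85 (BL/6J:C57), 1.94, 1.27 and 1.29 (BL/6J:NZB), 7.15, 6.26 and 7.27 (NZB:NZB) and 6.79, 6.36 and 5.74 (NZB:C57), with 1.67 (SE 0.18, adjusted p = 2.18e-06) and 1.44 (SE 0.18, adjusted p = 4.79e-06). Mcm6 was measured in heart at 6.29, 7.47 and 7.94 (BL/6J:C57), 7.30, 9.37 and 8.74 (BL/6J:NZB), 17.5, 13.7 and 11.3 (NZB:NZB) and 18.3, 20.5 and 18.1 (NZB:C57), and its log2 difference was 0.67 (SE 0.15, adjusted p = 0.00247) on NZB mtDNA and 1.28 (SE 0.15, adjusted p = 1.84e-06) on C57 mtDNA.

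Ccnd1 and Cdkn1a did not pass the test in heart. Ccnd1 values were 64.8, 66.4 and 65.0 (BL/6J:C57), 68.4, 64.0 and 65.4 (BL/6J:NZB), 60.3, 66.0 and 69.1 (NZB:NZB) and 75.9, 77.4 and 67.3 (NZB:C57), a spread from 60.3 to 77.4 over all 12 hearts, with differences of -0.02 and 0.16 that did not pass the test (adjusted p = 0.877 and 0.108). On C57 mtDNA the Ccnd1 difference depended on the scaling and on a single pool: it was -0.42 with library totals (limma, adjusted p = 0.000151) and 0.23 without NZB:C57 pool 3 (adjusted p = 0.0419). Cdkn1a values were 35.5, 40.1 and 24.8 (BL/6J:C57), 29.4, 19.4 and 23.0 (BL/6J:NZB), 28.6, 37.4 and 29.4 (NZB:NZB) and 27.5, 31.9 and 53.2 (NZB:C57), and all 4 ranges overlapped, with differences of 0.41 and 0.13. Cenpf, a large kinetochore protein, departed from the other spindle genes. It was measured in heart at 13.9, 17.2 and 13.5 (BL/6J:C57), 11.6, 13.0 and 17.8 (BL/6J:NZB), 9.37, 9.92 and 9.13 (NZB:NZB) and 24.8, 19.97 and 17.2 (NZB:C57), so NZB:NZB hearts were the lowest group and NZB:C57 hearts included the highest pools. On NZB mtDNA it was the 1 member that was lower, -0.51 (SE 0.15, adjusted p = 0.0186), while on C57 mtDNA it was higher, 0.44 (SE 0.15, adjusted p = 0.0329). In liver Cenpf was measured at 0.264, 0.446 and 1.04 (BL/6J:C57), 0.466, 0.687 and 0.504 (BL/6J:NZB), 8.50, 13.0 and 5.64 (NZB:NZB) and 2.19, 4.27 and 1.98 (NZB:C57), with a higher level under the NZB nucleus on both mtDNA types, 2.63 (SE 0.28, adjusted p = 1.27e-05) and 1.25 (SE 0.28, adjusted p = 0.00526). Cenpf passed the filter in liver only through the NZB libraries, so these liver calls are no support.

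The count on C57 mtDNA in heart rests on the 3 NZB:C57 hearts that stood apart. When values were scaled to library totals in place of the authors' normalisation, the median of all genes in that comparison moved to -0.52, and 29 members were higher and 4 lower. The comparison on NZB mtDNA does not use those hearts, and fitted on its own 6 libraries it gave 31 members higher and 1 lower. Without BL/6J:C57 liver pool 1, the liver count on C57 mtDNA was 23, the lowest count over all single pools left out of the 4 nuclear comparisons.

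Set side by side, 25 members were called higher with the NZB nucleus in all 4 comparisons. They were Mcm3, Mcm5, Mcm6, Rrm2 and Top2a of replication, Cdk1, Ccna2, Ccnb1, Ccnb2, Bub1, Cdc20, Ube2c and Foxm1 of mitotic control, and Kif11, Kif20a, Kif2c, Cenpe, Tpx2, Prc1, Nusap1, Birc5, Cdca3, Cdca8, Ckap2l and Mki67 of the spindle group. Another 6 were called in 3 comparisons (Ccne2, E2f1, Mcm4, Plk1, Aurka and Cenpf), 5 in 2 (Cdc6, Mcm7, Aurkb, Bub1b and Kif23), 4 in 1 (Ccnd1, Mcm2, Pcna and Tyms) and 4 in none (Ccne1, Cdkn1a, Tk1 and Cdc25c). No gene of G1 and S entry was among the 25. The share of all genes called in all 4 comparisons was not counted, so the 25 have no background beside them. Some of the 25 passed the filter only through the NZB libraries, such as Ccnb1 and Ckap2l in liver and Cdk1 and Cenpe in heart. Their calls in that tissue are no support. All 6 NZB-nuclear livers lay above all 6 BL/6J-nuclear livers for 31 members, against 8.85% of all tested genes, and the same held in heart for 32 members, against 10.4%. These counts and shares were not split by the filter on low values. The 15 liver and 14 heart members that passed it only through the NZB libraries were not left out, and for them separation is no support.

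Levels between genes were compared per kb of exon. In BL/6J:C57 liver Pcna was the highest member at 14.2 normalised reads per kb, followed by Cdkn1a at 6.19 and Ccnd1 at 6.06, beside a median over members of 0.316. The median over members per kb was 2.06 in NZB:NZB liver and 0.964 in NZB:C57 liver. In heart it was 0.336 in BL/6J:C57, 0.363 in BL/6J:NZB, 0.993 in NZB:NZB and 1.10 in NZB:C57. The 4 members that were highest per kb in BL/6J:C57 hearts were Ccnd1, Pcna, Cdkn1a and Mcm4, so in BL/6J:C57 mice the leading genes of neither tissue were mitotic ones. In NZB:NZB liver Cdc20, at 7.89, came next after Pcna at 14.0 and Ccnd1 at 12.1.

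Exchange of mtDNA on the BL/6J nucleus gave no called member. In liver 0 of 42 tested members passed between BL/6J:NZB and BL/6J:C57, where limma called 0.00760% of all genes, that is 1 gene, and 1284 genes had an unadjusted p under 0.05. In heart 0 of 43 passed, against 0.935% of all genes, with 2340 genes at an unadjusted p under 0.05. The count also stayed at 0 with edgeR and DESeq2. Liver log2 differences of the members ran from -0.33 (Cdca3) to 0.19 (Bub1b), and heart ones from -0.46 (Cdkn1a) to 0.39 (Nusap1). Mki67 differed by 0.01 (SE 0.28, adjusted p = 1.0) in liver and -0.01 (SE 0.13, adjusted p = 0.992) in heart. Ccnd1 differed by -0.32 (SE 0.22, adjusted p = 0.632) in liver, where its SE is larger than in heart, 0.01 (SE 0.08, adjusted p = 0.968).

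On the NZB nucleus members were called between the mtDNA types in liver. With C57 mtDNA in place of NZB mtDNA, 18 members were lower and 0 higher, where 4.44% of all tested genes were lower and 3.65% higher. The median over members was -0.65. Of the 42 tested members 15 passed the filter only through the NZB libraries, Ckap2l, Plk1 and Ube2c among them. The counts of members and of all genes were not split by that filter, so for those members they are no support. By role, 8 of 14 spindle genes, 6 of 13 mitotic control genes, 4 of 11 replication genes and 0 of 6 genes of G1 and S entry were the ones lower in the conplastic livers.

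Mcm6 had the smallest p of the group, with a log2 difference of -0.997 (SE 0.15, adjusted p = 0.000598) between its NZB:C57 and NZB:NZB livers. Ckap2l followed at -1.12 (SE 0.17, adjusted p = 0.000817), and Mki67 was -1.46 (SE 0.28, adjusted p = 0.00415), its NZB:C57 mean being 0.363 of the NZB:NZB mean. Plk1, the Polo-like kinase that acts at several steps of mitosis, was measured in liver at 0.440, 0.781 and 0.318 (BL/6J:C57), 0.373, 0.172 and 0.360 (BL/6J:NZB), 5.39, 6.49 and 3.76 (NZB:NZB) and 2.04, 0.970 and 1.65 (NZB:C57). No NZB:C57 pool reached the lowest NZB:NZB pool, and the difference was -1.28 (SE 0.22, adjusted p = 0.00199). Ube2c, the ubiquitin-conjugating enzyme that works with the APC/C, was measured at 0.440, 0.446 and 0.637 (BL/6J:C57), 0.933, 0.430 and 0.504 (BL/6J:NZB), 7.31, 8.94 and 4.76 (NZB:NZB) and 2.12, 3.49 and 1.81 (NZB:C57), with the same order of groups and a difference of -1.198 (SE 0.23, adjusted p = 0.00485). Kif20a differed by -1.17 (SE 0.22, adjusted p = 0.00424). Ccnd1 did not pass at -0.62 (SE 0.22, adjusted p = 0.121), but did with library totals (-0.86, adjusted p = 0.0152) and without NZB:C57 pool 3 (-0.85, adjusted p = 0.0292). Cdkn1a did not pass at -0.00 (SE 0.41, adjusted p = 1.0).

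The count of 18 depended on the settings. It was 9 without NZB:NZB pool 1, 8 without NZB:NZB pool 2, 10 with a pseudocount of 0.25, 11 with edgeR and 13 with DESeq2, and 32 with library totals, under which the median of all genes moved to -0.23. In each of these fits the called members were all lower in NZB:C57.

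Markers of other cell types moved with it. All 5 endothelial markers were lower in the NZB:C57 livers, with sums of 98.8 to 110 in NZB:C57 against 221 to 255.8 in NZB:NZB, and 4 of 5 fibroblast and stellate markers were lower, with sums of 99.4 to 158 against 278 to 308. Of the macrophage markers 2 were lower and 1 higher, with overlapping sums of 194 to 260 in NZB:NZB and 232 to 334 in NZB:C57. Of the hepatocyte markers 2 of 6 were higher, the T cell marker Cd3e was higher and both tested plasma cell markers were higher. The part of these in the members' difference was not tested.

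Between the nuclear genomes the markers did not run parallel to the members throughout. The endothelial sum of NZB:C57 livers lay within that of BL/6J:C57 livers (98.8 to 110 against 76.8 to 118) and 0 of 5 endothelial markers passed the test there, while the mitotic control genes summed to 38.9 to 49.1 against 8.19 to 13.9. On NZB mtDNA 4 of 5 endothelial and 3 of 5 fibroblast and stellate markers were higher in NZB:NZB than in BL/6J:NZB livers. Of 4 erythroid markers tested in liver, 2 (Alas2 and Klf1) were lower with the NZB nucleus on either mtDNA, and Alas2 made up most of the sum in the BL/6J-nuclear livers. The erythroid markers summed to 222 to 281 (BL/6J:C57) and 251 to 266 (BL/6J:NZB) in BL/6J-nuclear livers, and to 40.8 to 122 in NZB:NZB and 34.5 to 68.2 in NZB:C57. Cardiomyocyte markers summed to at most 1.01 in BL/6J-nuclear livers, 33.5 to 114 in NZB:NZB livers, and 0.314, 113 and 86.3 in NZB:C57 livers. The NZB:C57 liver at 0.314 had 0 reads of Myh6. Hepatocyte markers summed in hearts to 13.5 to 18.1 (BL/6J:C57), 20.4 to 179 (BL/6J:NZB), 84.7 to 90.9 (NZB:NZB) and 43.7 to 95.8 (NZB:C57). The part of any of these markers' cell types in the members' difference was not tested.

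In heart all 5 fibroblast markers and all 4 tested endothelial markers were higher in NZB:C57 than in BL/6J:C57, with fibroblast sums of 2007 to 2229 against 649 to 666 and endothelial sums of 1062 to 1222 against 573 to 646; all 6 cardiomyocyte markers were higher as well. In the comparison on NZB mtDNA 4 of 5 fibroblast markers were higher, with sums of 1585 to 1811 against 671 to 695, 0 of 4 endothelial markers passed the test and 4 of 6 cardiomyocyte markers were lower. Macrophage sums were 69.3 to 74.3 in NZB:NZB and 40.8 to 51.6 in BL/6J:NZB hearts. Both tested neutrophil markers were lower with the NZB nucleus in heart on either mtDNA. Whether these cell types carry the members' difference was not tested.

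**Figure D3:**
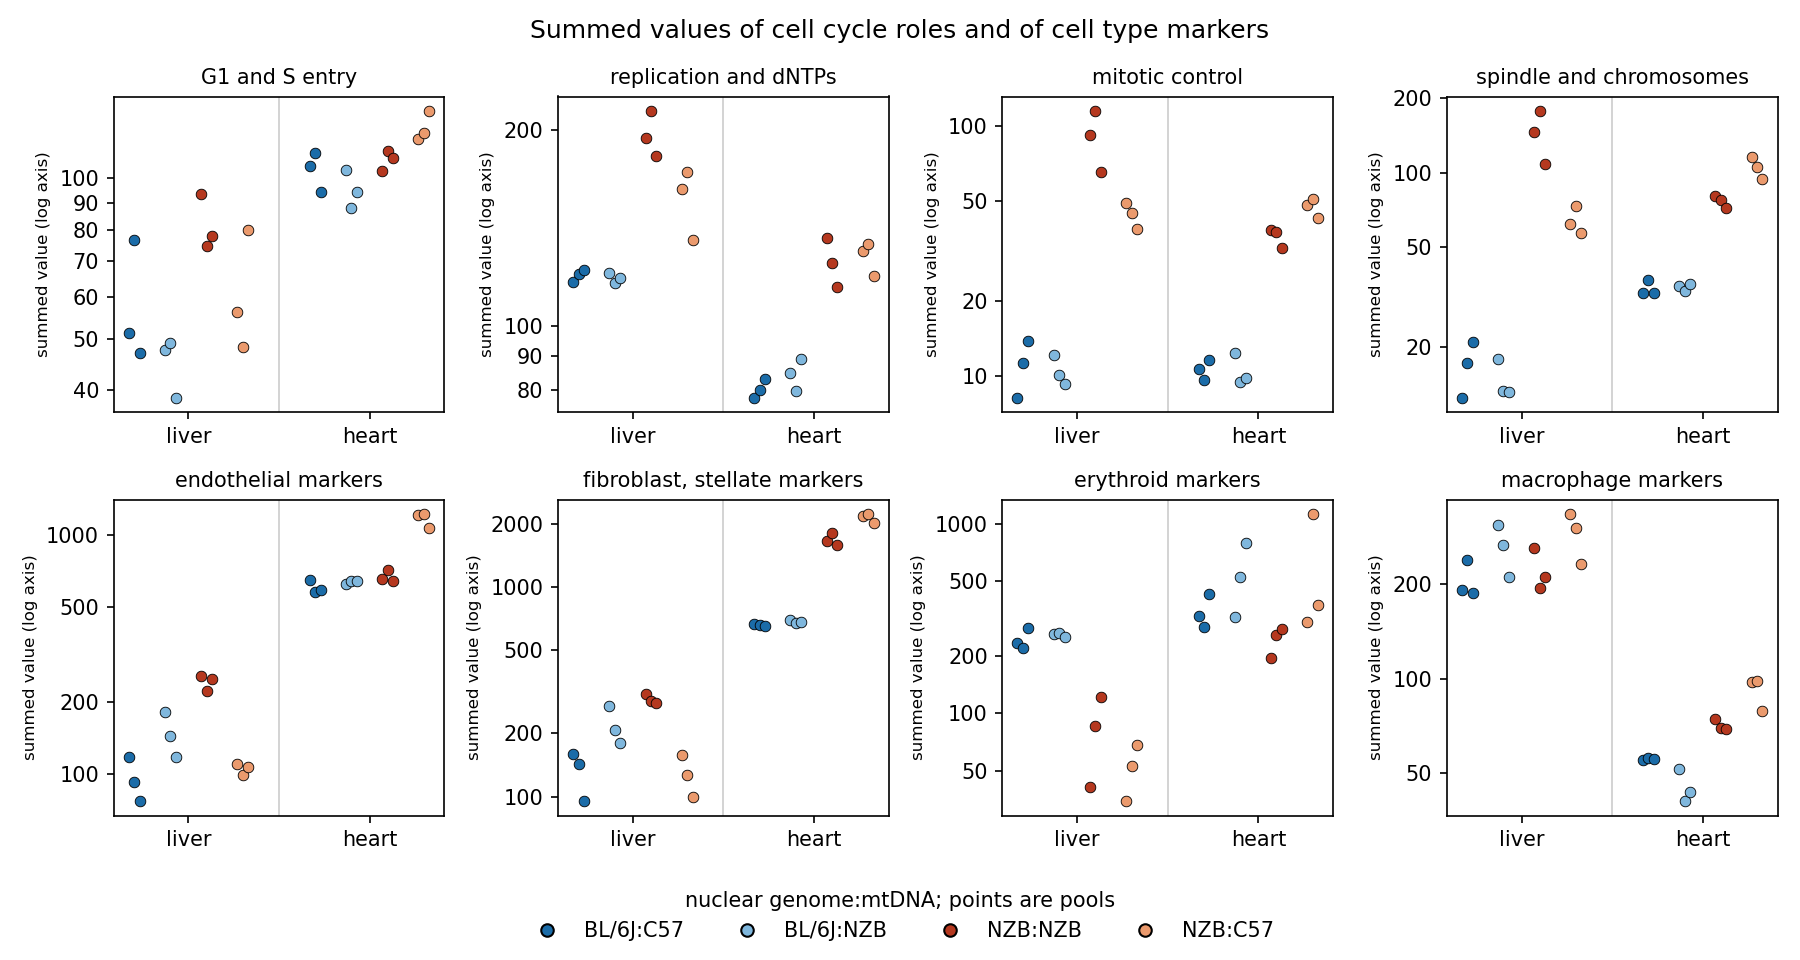
Summed normalised values of the 4 role groups (upper row) and of marker lists of 4 cell types (lower row) in every library, on log axes, by tissue and genotype; each point is a pool. Mitotic control genes sum to 8.19 to 13.9 in BL/6J-nuclear livers and 38.9 to 115 in NZB-nuclear livers, while endothelial markers of NZB:C57 and BL/6J:C57 livers overlap.

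In heart the mtDNA comparison on the NZB nucleus called 4 members higher in NZB:C57 than in NZB:NZB and 0 lower, where 13.0% of all tested genes were higher and 2.89% lower, so the members' share was below the background. They were Cenpf (1.03 (SE 0.15, adjusted p = 6.94e-05)), Bub1b (0.96 (SE 0.19, adjusted p = 0.00123)), Cdc6 (0.75 (SE 0.19, adjusted p = 0.0118)) and Mki67 (0.46 (SE 0.13, adjusted p = 0.0224)). Bub1b, the spindle checkpoint kinase BUBR1, had heart values of 1.37, 0.795 and 0.924 (BL/6J:C57), 1.19, 1.11 and 0.788 (BL/6J:NZB), 1.43, 2.26 and 1.86 (NZB:NZB) and 4.67, 4.87 and 3.97 (NZB:C57) and liver values of 0.0881, 0.502 and 0.796 (BL/6J:C57), 1.12, 0.516 and 0.360 (BL/6J:NZB), 5.03, 6.00 and 2.21 (NZB:NZB) and 2.43, 0 and 2.96 (NZB:C57). Its NZB:C57 hearts stood above the other 9 hearts, and 1 NZB:C57 liver had 0 reads. Cdc6, which loads the helicase onto replication origins, was measured in heart at 0.365, 0.477 and 0.554 (BL/6J:C57), 0.596, 0.159 and 0.501 (BL/6J:NZB), 1.43, 1.39 and 1.01 (NZB:NZB) and 2.97, 2.81 and 2.65 (NZB:C57), with the 3 NZB:C57 pools again highest. Cdc6 passed the filter in heart only through the NZB libraries, so its heart calls are no support. In liver Cdc6 did not pass the filter on low values, with a highest value of 2.26.

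Across genes at large the mtDNA difference on the NZB nucleus ran opposite in the 2 tissues. Over the 12063 genes tested in both, the log2 differences in liver and heart had Pearson's r = -0.73 and opposite signs in 82.4%; this is across genes, which are not replicates, and the genes share their libraries within a tissue. Of the 42 members tested in both tissues 35 had opposite signs, of which 32 were lower in liver and higher in heart.

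With library totals 2 members were higher and 20 lower in heart, and the median of all genes was -0.64. Cenpf and Bub1b stayed higher under that scaling (1.03 became 0.38 and 0.96 became 0.43), Cdc6 no longer passed and Mki67 turned to -0.21. The Cdc6 call was also lost with a pseudocount of 0.25 (adjusted p = 0.0546), with DESeq2 (0.157) and without NZB:NZB pool 3 (0.0571) or NZB:C57 pool 1 (0.0523). Without NZB:NZB pool 3, 2 of the 4 calls were left, and Mki67 was not called without NZB:NZB pool 1 or 3 or NZB:C57 pool 1.

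**Figure D4:**
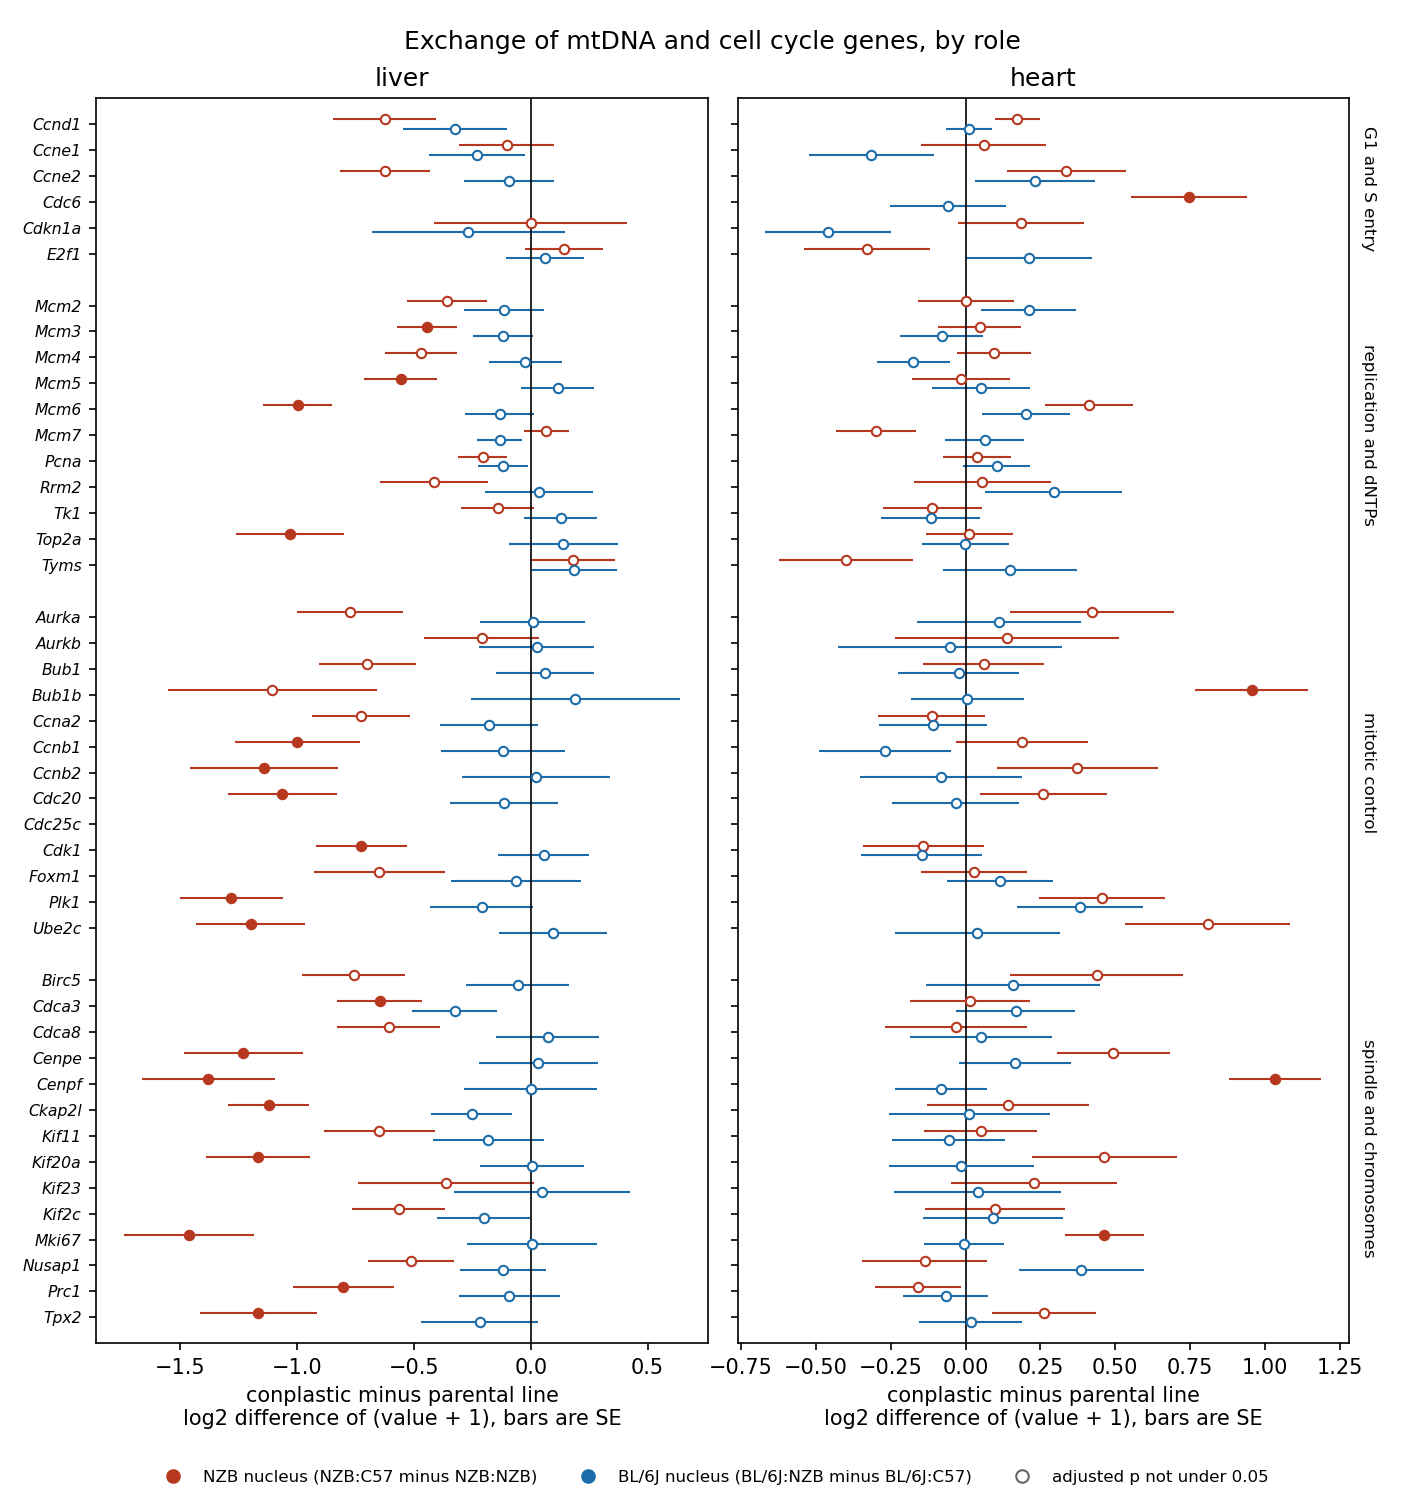
Log2 difference of (value + 1) between conplastic and parental line on the same nucleus for each tested member, by role, in liver and heart; points are limma estimates, bars are standard errors, and open points did not reach an adjusted p under 0.05. In liver 18 members on the NZB nucleus lie to the left with filled points, in heart 4 lie to the right, and no point of the BL/6J nucleus is filled.

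The difference between nuclei in the effect of mtDNA was tested directly, as the effect of C57 against NZB mtDNA on the NZB nucleus minus the same on the BL/6J nucleus. In liver 3 members were called and all were negative, where 0.669% of all genes were called negative and 1.82% positive: Ckap2l (-1.38 (SE 0.24, adjusted p = 0.00496)), Mcm6 (-1.13 (SE 0.21, adjusted p = 0.00695)) and Plk1 (-1.49 (SE 0.31, adjusted p = 0.0170)). Ckap2l and Plk1 passed the filter only through the NZB libraries, and with values under 1 in every BL/6J liver their BL/6J side is compressed on the log2(value + 1) scale. Mki67 missed the threshold at -1.46 (SE 0.39, adjusted p = 0.0821), but was called with DESeq2 (adjusted p = 0.0309), library totals (0.0417), a replicate block (0.0475) and without NZB:C57 pool 2 (0.00934). The count was 7 without BL/6J:C57 pool 1 or NZB:NZB pool 3, 6 without NZB:C57 pool 3, 5 without NZB:C57 pool 2 and 8 with library totals. The Plk1 call was lost with edgeR (adjusted p = 0.0906) and DESeq2 (0.0598) and without BL/6J:C57 pool 2, BL/6J:NZB pool 2, NZB:NZB pool 1 or NZB:NZB pool 2 (adjusted p from 0.0575 to 0.0626).

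In heart 2 members were called, both positive, Cenpf (0.95 (SE 0.22, adjusted p = 0.00614)) and Bub1b (0.96 (SE 0.27, adjusted p = 0.0246)), against 9.81% of all genes positive and 1.42% negative. The Bub1b call was lost with edgeR, DESeq2, a pseudocount of 0.25 and library totals and when any of 7 single pools was left out, with adjusted p from 0.0537 to 0.0688 over those pools. Cenpf was called whichever single pool was left out, and not with library totals (0.32, adjusted p = 0.193). The mean log2 difference of Mki67 was 0.46 (SE 0.19, adjusted p = 0.152).

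Between the tissues of one genotype the members differed in both directions. In BL/6J:C57 mice 7 members were higher in heart and 8 in liver, beside 37.3% and 39.8% of all 14968 genes tested. These counts depended on the scaling, as given below. Many members also have low values, where log2(value + 1) compresses a difference, so the counts are not read against those shares. Cenpf showed the largest difference of any member, 3.35 (SE 0.24, adjusted p = 1.17e-11), as BL/6J hearts had values from 11.6 to 17.8 and BL/6J livers from 0.264 to 1.04. Tk1, with heart values of 4.01, 4.93 and 4.06 (BL/6J:C57), 3.87, 3.34 and 4.59 (BL/6J:NZB), 3.73, 3.65 and 3.72 (NZB:NZB) and 3.48, 4.04 and 2.65 (NZB:C57), was lower in heart by -2.03 (SE 0.15, adjusted p = 3.23e-11). Tyms had heart values of 6.65, 3.34 and 3.33 (BL/6J:C57), 3.73, 5.56 and 5.30 (BL/6J:NZB), 5.72, 6.96 and 8.79 (NZB:NZB) and 5.69, 5.86 and 3.97 (NZB:C57) and a difference of -1.53 (SE 0.22, adjusted p = 1.29e-06).

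Mcm7 had heart values of 7.11, 7.31 and 9.61 (BL/6J:C57), 8.49, 7.62 and 8.96 (BL/6J:NZB), 11.3, 12.4 and 11.7 (NZB:NZB) and 9.42, 8.42 and 10.4 (NZB:C57), with -1.08 (SE 0.11, adjusted p = 3.48e-09) in BL/6J:C57. Cdca3 had heart values of 0.638, 0.318 and 0.554 (BL/6J:C57), 1.04, 0.476 and 0.573 (BL/6J:NZB), 2.78, 2.09 and 2.54 (NZB:NZB) and 3.06, 2.06 and 2.43 (NZB:C57), with -1.24 (SE 0.18, adjusted p = 1.16e-06). Both were lower in BL/6J:C57 hearts than in the livers of the same genotype. Ccnd1 and Mki67 were higher in heart, 1.2 (SE 0.18, adjusted p = 1.74e-06) and 0.88 (SE 0.23, adjusted p = 0.00151). With library totals the median of all genes in this comparison was 0.74, the counts became 26 higher and 4 lower, and Mcm7 was no longer called.

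In NZB:NZB mice 27 members were lower in heart than in liver and 1, Cdkn1a, was higher (1.31 (SE 0.37, adjusted p = 0.00270)), beside 37.4% and 37.8% of all genes. Tk1 (-2.68 (SE 0.15, adjusted p = 2e-13)), Cdca3 (-2.01 (SE 0.18, adjusted p = 4.51e-10)), Cdc20 (-1.68 (SE 0.22, adjusted p = 4.39e-07)) and Ccnb1 (-1.81 (SE 0.24, adjusted p = 5.43e-07)) were among those with the smallest p, as was Mcm7 (-0.77 (SE 0.11, adjusted p = 8.07e-07)). Cdc20 had heart values of 1.18, 0.954 and 1.29 (BL/6J:C57), 1.19, 1.43 and 0.716 (BL/6J:NZB), 4.21, 3.13 and 4.06 (NZB:NZB) and 4.58, 3.38 and 6.62 (NZB:C57) and Ccnb1 of 0.547, 0.477 and 1.11 (BL/6J:C57), 0.447, 0.159 and 0.645 (BL/6J:NZB), 2.54, 2.44 and 2.70 (NZB:NZB) and 4.33, 2.64 and 2.43 (NZB:C57). The NZB:NZB hearts of both genes lay below the NZB:NZB livers and above the BL/6J hearts. Aurka, Aurora A, the kinase of centrosomes and spindle poles, had liver values of 2.55, 2.90 and 3.15 (BL/6J:C57), 2.98, 3.01 and 2.66 (BL/6J:NZB), 10.5, 11.99 and 7.08 (NZB:NZB) and 5.88, 7.18 and 3.29 (NZB:C57) and heart values of 1.28, 0.477 and 0.924 (BL/6J:C57), 1.49, 0.635 and 1.003 (BL/6J:NZB), 2.46, 2.78 and 0.845 (NZB:NZB) and 2.89, 2.15 and 3.75 (NZB:C57), a difference of -1.88 (SE 0.26, adjusted p = 9.44e-07). With library totals 16 members were higher and 10 lower and the median of all genes was 0.73, and Mki67 (-0.99) was no longer called at -0.15.

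Whether the nuclear genome acted to a different extent in the 2 tissues was tested on NZB mtDNA, in a comparison added after the data were seen. The liver effect minus the heart effect was positive for 17 members and negative for 0, where 8.20% of all genes were positive and 7.32% negative. Cenpf (3.14 (SE 0.34, adjusted p = 5.12e-07)), whose effects have opposite signs in the tissues, Plk1 (1.68 (SE 0.28, adjusted p = 0.000141)), Cdc20 (1.82 (SE 0.32, adjusted p = 0.000249)), Mki67 (1.86 (SE 0.33, adjusted p = 0.000297)), Ccnd1 (1.33 (SE 0.25, adjusted p = 0.000580)) and Mcm6 (1.12 (SE 0.21, adjusted p = 0.000660)) had the smallest p. With library totals 11 members were called, all positive. The counts of 17 and 11 were not split by the filter on low values, and for members that passed it only through the NZB libraries they are no support. Plk1 is such a member, with values of 0.172 to 0.781 in BL/6J-nuclear livers and 0.185 to 1.04 in BL/6J-nuclear hearts. The BL/6J side of Plk1, and that of Cenpf in liver, is compressed on the log2(value + 1) scale. Pools were fitted as independent, although both tissues may have come from the same mice.

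A wider list of 95 other cell cycle genes in the table was tested in the same fits. In liver 42 were higher and 4 lower with the NZB nucleus on NZB mtDNA, and 31 and 6 on C57 mtDNA. In heart the counts were 33 and 5, and 43 and 3. For mtDNA on the NZB nucleus they were 2 higher and 17 lower in liver and 11 higher and 0 lower in heart. On the BL/6J nucleus 0 were called in either tissue. Over the 91 tested in liver, 46.2% and 34.1% were higher with the NZB nucleus on NZB and C57 mtDNA, beside 12.9% and 13.1% of all genes. Over the 94 tested in heart the shares were 35.1% and 45.7%, beside 15.5% and 22.1%. For mtDNA on the NZB nucleus, 18.7% were lower in liver, beside 4.44% of all genes, and 11.7% were higher in heart, near the 13.0% of all genes. The counts and shares of this list were not split by the filter on low values. For its genes that passed only through the NZB libraries they are no support. Of all genes that passed in that way, 52.3% and 40.7% were higher with the NZB nucleus in liver on NZB and C57 mtDNA, and 30.5% and 57.9% in heart.

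Ncapg, a subunit of the condensin complex that compacts mitotic chromosomes, had liver values of 0.793, 0.893 and 0.677 (BL/6J:C57), 0.746, 0.687 and 0.648 (BL/6J:NZB), 14.5, 17.99 and 14.8 (NZB:NZB) and 19.3, 16.5 and 14.7 (NZB:C57). The NZB:NZB and NZB:C57 livers overlapped and the log2 difference between nuclear genomes was 3.30 (SE 0.14, adjusted p = 8.22e-10) on NZB mtDNA and 3.31 (SE 0.14, adjusted p = 7.36e-10) on C57 mtDNA. Ncapg passed the filter in liver only through the NZB libraries, so these calls are no support. Ect2, the exchange factor that triggers cytokinesis, Hmmr, a spindle assembly protein, and Nek2, a centrosome kinase, were higher in liver on NZB mtDNA by 2.42, 2.40 and 2.08. Pttg1, securin, which holds separase in check until anaphase, ran the other way. It was measured in liver at 41.6, 31.1 and 30.5 (BL/6J:C57), 24.7, 28.4 and 31.02 (BL/6J:NZB), 6.397, 6.29 and 5.31 (NZB:NZB) and 5.25, 2.52 and 2.63 (NZB:C57), and in heart at 53.7, 52.0 and 51.4 (BL/6J:C57), 52.8, 67.0 and 69.1 (BL/6J:NZB), 3.02, 2.09 and 2.54 (NZB:NZB) and 3.31, 5.12 and 3.97 (NZB:C57). All 12 NZB-nuclear libraries lay below all 12 BL/6J-nuclear libraries, and in heart the log2 difference was -4.17 (SE 0.14, adjusted p = 3.49e-13) on NZB mtDNA and -3.39 (SE 0.14, adjusted p = 3e-12) on C57 mtDNA.

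Gmnn, geminin, an inhibitor of repeated origin loading, was lower in NZB:NZB than in BL/6J:NZB hearts, -1.34 (SE 0.15, adjusted p = 4.51e-06). Anln, a scaffold of the cleavage furrow, and Smc2, a condensin subunit, were higher there, 1.503 (SE 0.19, adjusted p = 1.78e-05) and 1.04 (SE 0.14, adjusted p = 1.85e-05). Ccnd2, cyclin D2, and Cdkn1c, which codes for the inhibitor p57, were higher in NZB:C57 than in BL/6J:C57 hearts, 0.74 (SE 0.09, adjusted p = 5.24e-06) and 1.68 (SE 0.13, adjusted p = 1.46e-08). That comparison uses the NZB:C57 hearts that stood apart, and genes of the wider list were not examined under library totals. In liver Cks2, a subunit of cyclin-dependent kinases, was higher in NZB:C57 than in NZB:NZB, 0.80 (SE 0.12, adjusted p = 0.000505), while Hmmr (-1.17 (SE 0.22, adjusted p = 0.00369)), Cenpa (-0.93 (SE 0.19, adjusted p = 0.00658)) and Ccnd2 (-1.22 (SE 0.21, adjusted p = 0.00222)) were lower.

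Of 17 targets of the tumour suppressor p53 in the table, 1 was higher and 2 lower in liver with the NZB nucleus on NZB mtDNA, and 1 and 3 on C57 mtDNA. In heart the counts were 0 and 2, and 3 and 2. With 16 of them tested in liver and 17 in heart, their shares were 0 to 17.6% higher and 11.8 to 18.8% lower, beside those of all genes (12.9 to 22.1% higher and 11.9 to 14.8% lower). Mdm2, the ubiquitin ligase of p53, was lower in liver on both mtDNA types, -0.59 (SE 0.11, adjusted p = 0.00131) and -0.54 (SE 0.11, adjusted p = 0.00246). Ddit4, an inhibitor of mTORC1 induced by stress, was lower in all 4 comparisons, from -0.91 to -0.74. Cdkn1a, the member that is itself a p53 target, was called in none of them.

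Some of these counts can include reads of near-identical sequence. Of the 44 members, 14 shared at least 10% of their 31-base words with other annotated transcripts: Mcm7 33.4%, Ccnb1 27.8%, Cdc20 and Kif20a 26.7%, Ube2c 25.3%, Pcna 23.3%, Ccnd1 22.3%, and 7 more below 20%. For Ccnb1, Cdc20, Pcna and Plk1 the partner sharing most was a pseudogene or predicted gene, and for Kif20a, Ube2c and Ccnd1 it was a gene on the opposite strand (Cdc23, Tnnc2 and LTO1). In all, 15 members overlapped an exon of an antisense gene, and the sources used here do not say whether strand was used in counting, so those values are uncertain to that extent. Mki67, Top2a, Mcm6 and Cdk1 are not among the 14. Of the other cell cycle genes named above, those sharing at least 10% were Cks2 (31.7%, with Gm15452), Cdkn1c (27.2%, with Gm44732) and Ncapg (12.5%, mostly with Lcorl). Gm44732 and Lcorl lie on the opposite strand.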

How the data were processed

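RNA-seq libraries of 24 pools (3 per genotype and tissue) were analysed from 1 deposited table of 15323 genes. Per the submitters' processing notes the tools were cutadapt 1.2.1, RSEM 1.2.3, Bowtie2 2.0.6 and edgeR, with GRCm38; the order, parameters and strand setting are not given in the sources used here. The deposited values are a signal, normalised gene counts that the authors had scaled between libraries. At least 99.99% of values in every library were whole multiples of 1 read (within 0.01 reads), so reads were recovered, and libraries held 3714278 to 34974268 reads. Depth therefore limits genes of few reads most.

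The main test was limma 3.58.1 (R 4.3.3, trend) on log2(value + 1) over the 12 libraries of a tissue, or all 24 for comparisons between tissues, keeping genes that reached a value of 1 in 3 or more libraries, and Benjamini-Hochberg adjustment over all genes tested at 0.05. On the recovered reads edgeR 4.0.16 and DESeq2 1.42.0 were run as alternatives; for the nucleus on NZB mtDNA in liver they called 3282 and 3200 genes, beside 3271 with limma. Other alternatives were a pseudocount of 0.25, no filter, library totals, only the libraries compared, a replicate block and each pool left out. The script was tested on simulated data.

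Genes named with values in every library were Mki67, Ccnd1 and Cdkn1a and up to 6 called members per comparison by smallest p, and up to 4 called genes per comparison from each of the lists of other cell cycle genes and p53 targets. The 44 members and the lists were chosen with earlier results of these data known. Symbols were matched for 15106 genes (98.58%). Pools with the same number deviated together (every correlation over 0.1: 0.172, 0.139 and 0.148) only for the nucleus on NZB mtDNA in liver; the pairing there comes from the data, as no label says what a number marks.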

Additional observations from a re-analysis of the deposited data

Results flagged for a closer look

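Results are listed here because a test of the difference between groups passed (limma, adjusted p under 0.05 over all genes). For the effect of C57 against NZB mtDNA, NZB nucleus minus BL/6J nucleus, the log2 difference in liver was -1.13 (SE 0.21, adjusted p = 0.00695) for Mcm6, -1.49 (SE 0.31, adjusted p = 0.0170) for Plk1 and -1.38 (SE 0.24, adjusted p = 0.00496) for Ckap2l. Plk1 and Ckap2l passed the filter in liver only through the NZB libraries, so their calls are no support. The Plk1 call was lost with edgeR (adjusted p = 0.0906), with DESeq2 (0.0598) and when any of 4 single pools was left out. In heart it was 0.96 (SE 0.27, adjusted p = 0.0246) for Bub1b and 0.95 (SE 0.22, adjusted p = 0.00614) for Cenpf. The Bub1b call was lost in 11 alternatives, edgeR and DESeq2 among them, and the Cenpf call in 1, library totals.

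For the effect of the nuclear genome on NZB mtDNA, liver minus heart, it was 1.33 (SE 0.25, adjusted p = 0.000580) for Ccnd1, 1.12 (SE 0.21, adjusted p = 0.000660) for Mcm6, 1.68 (SE 0.28, adjusted p = 0.000141) for Plk1, 1.82 (SE 0.32, adjusted p = 0.000249) for Cdc20, 3.14 (SE 0.34, adjusted p = 5.12e-07) for Cenpf and 1.86 (SE 0.33, adjusted p = 0.000297) for Mki67. Plk1 passed the filter only through the NZB libraries, so its call is no support. This comparison between tissues was chosen after seeing the data.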

How the results depend on the processing

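Counts below are of called members, and the cause of each change was not tested. For mtDNA on the NZB nucleus in liver (18) the count was 10 with a pseudocount of 0.25, 32 with library totals, 11 with edgeR and 8 to 19 with 1 pool left out. For the difference between nuclei in liver (3) it was 8 with library totals and 2 to 7 with 1 pool left out. In heart mtDNA on the NZB nucleus (4) gave 22 with library totals and 2 to 5 with 1 pool left out, and the difference between nuclei (2) gave 1 with a pseudocount of 0.25, 13 with library totals, all negative and none of them the 2 called before, 1 with edgeR, 1 with DESeq2 and 1 to 2 with 1 pool left out. Heart against liver in BL/6J:C57 (15) gave 30 with library totals, and the tissue difference (17) gave 11. With library totals the split was 16 higher and 10 lower for heart against liver in NZB:NZB, and 29 higher and 4 lower for the nucleus on C57 mtDNA in heart.

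With a replicate block the nuclear counts in liver were 36 on NZB mtDNA, where the numbers pair the pools, and 31 on C57 mtDNA, and in heart 32 and 35. The block gave 16, 4, 0 and 0 for mtDNA on the NZB and BL/6J nuclei in liver and heart (NZB liver, NZB heart, then both BL/6J), 4 and 2 for the differences between nuclei, 16 and 28 for heart against liver and 18 for the tissue difference. Same-numbered pools correlated best with each other in 3 of 3 pairs for mtDNA on the BL/6J nucleus in heart too, with correlations under 0.1.

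Of 61 called results of named members, 818 of 848 alternative values kept direction and call, 28 lost the call and 2 reversed. With library totals Mki67 was -0.21 for mtDNA on the NZB nucleus in heart and Mcm7 was 0.049 in NZB:NZB heart against liver. Among results that were not called, library totals reversed Ccnd1 in heart (difference -0.48, mtDNA on NZB nucleus -0.52, nucleus -0.42 on C57 and 0.066 on NZB mtDNA), Cdkn1a in heart (mtDNA on NZB nucleus -0.50, nucleus on C57 mtDNA -0.44) and Mki67 in heart (difference -0.19, mtDNA on BL/6J nucleus 0.019). Of these, 4 passed the test in the new direction: the Ccnd1 difference (limma, adjusted p = 0.00122), Ccnd1 for mtDNA on the NZB nucleus (1.49e-05) and for the nucleus on C57 mtDNA (0.000151), and Cdkn1a for mtDNA on the NZB nucleus (0.0446). Cdkn1a for mtDNA on the NZB nucleus in liver was 0.068 with edgeR and 0.10 with DESeq2. With 1 pool left out, signs also changed in these uncalled results. Cdkn1a ran from -0.35 to 0.26 there, from -0.84 to 0.19 for both the difference and the BL/6J nucleus in liver, from -0.090 to 0.37 for mtDNA on the NZB nucleus in heart and from -0.14 to 0.32 for the nucleus on C57 mtDNA in heart. Ccnd1 ran from -0.016 to 0.032 on the BL/6J nucleus in heart and from -0.063 to 0.034 (0.0069 without BL/6J:NZB pool 1) for the nucleus on NZB mtDNA in heart, and Mki67 on the BL/6J nucleus ran from -0.070 to 0.068 in heart and from -0.21 to 0.14 in liver. At 1 to 14 reads per BL/6J library, Plk1 is among the genes whose size of change depth limits most.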
